A study of Mus musculus with 8 samples.

Results

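The 10 genes described here are known from Kupffer cells, the resident macrophages of the liver, and were followed through RNA sequencing libraries of cells sorted from the liver as duct cells. They were selected by name from 20377 gene symbols in the deposited tables: Clec4f, Cd5l, Vsig4, C1qa, C1qb, C1qc, Emr1, Marco, Timd4 and Csf1r. The selection was made with their levels in these libraries already known, so their differences between the sorted populations are given as a description, with no test. Non-parenchymal cells of wild type C57BL/6 mouse liver were sorted by flow cytometry into non-blood cells positive for the duct antibody MIC1-1C3 and negative for CD26, and these were divided by the surface protease ST14 into ST14high and ST14low cells. No treatment, transgene, sex or age is given for either population. Each population has 4 libraries, 8 in all. The labels do not say whether the libraries of a population came from separate animals, so the p-values below reflect how much these particular libraries vary, and that variation may be technical.

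Kupffer cells sit in the liver sinusoids and take up particles, aged cells and lipids from the blood through surface lectins and scavenger receptors. They make the complement protein C1q, whose 3 chains are built from 3 neighbouring genes, and they depend on signalling through the CSF1 receptor. The transcription factor PU.1, encoded by the gene listed as Sfpi1, and factors of the MAF family are widely used by macrophages.

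The libraries held 6398306 (ST14low replicate 3) to 42769979 (ST14high replicate 3) counted reads, and levels are given as CPM, reads of a gene scaled to a common library total, after TMM scaling, which corrects library totals so that most genes are comparable. The duct label was matched by high duct transcripts: Epcam, an epithelial adhesion protein, had 571 ± 41.9 CPM in ST14high and 582 ± 54.8 in ST14low cells (SD, n = 4 each), and Sox9, a duct transcription factor, 461 ± 38.2 and 477 ± 52.7. Krt19, a duct keratin, had 740 ± 523 CPM and 493 ± 268, and St14, whose protein divided the sort, had 305 ± 32.5 and 330 ± 49.0, with overlapping populations for all 4 genes. Ptprc, which encodes the pan-blood antigen CD45, was at 0 to 6.63 CPM in ST14high and 3.92 to 17.6 in ST14low libraries. Library ST14high replicate 1 stood apart in its pancreatic acinar transcripts, with 9261 CPM summed over 11 genes, and in its mesothelial and fibroblast transcripts, with 2493 CPM summed over 12 genes. ST14high replicate 2 had the next highest acinar sum, 1331 CPM, against 2.60 and 5.76 CPM in ST14high replicates 3 and 4. In ST14high replicate 3, 9 of the 10 Kupffer cell genes were at their lowest. Dixon's test on CPM could not have marked this library for them, since levels cannot be negative and the other 3 libraries differed widely. Fold changes of the 9 genes other than Csf1r are therefore also given without ST14high replicate 1 or 3. For some further genes and lists a range with single libraries left out is given. Values printed alone may rest on either library.

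Of the 10 genes, 9 were lower in ST14high than in ST14low cells by 2.45-fold to 4.99-fold, and Csf1r, the CSF1 receptor gene, by 1.18-fold. The edgeR fit across 13749 genes called 0% of them at an adjusted p of 0.05. A log2 fold change (ST14high over ST14low) of -1 or less was reached by 9 of the 10 genes and by 2.23% of all genes tested, and a value below 0 by 10 of 10 against 49.7%. The median of the 10 genes was -1.95, beside 0.00229 over all genes tested. All 4 ST14high libraries lay below all 4 ST14low libraries for 2 of the 10 genes, Vsig4 and Emr1, as for 2.33% of all genes. These shares repeat the contrast that chose the genes. In bulk RNA, fewer cells of a type and less RNA per cell cannot be told apart.

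**Figure D1:**
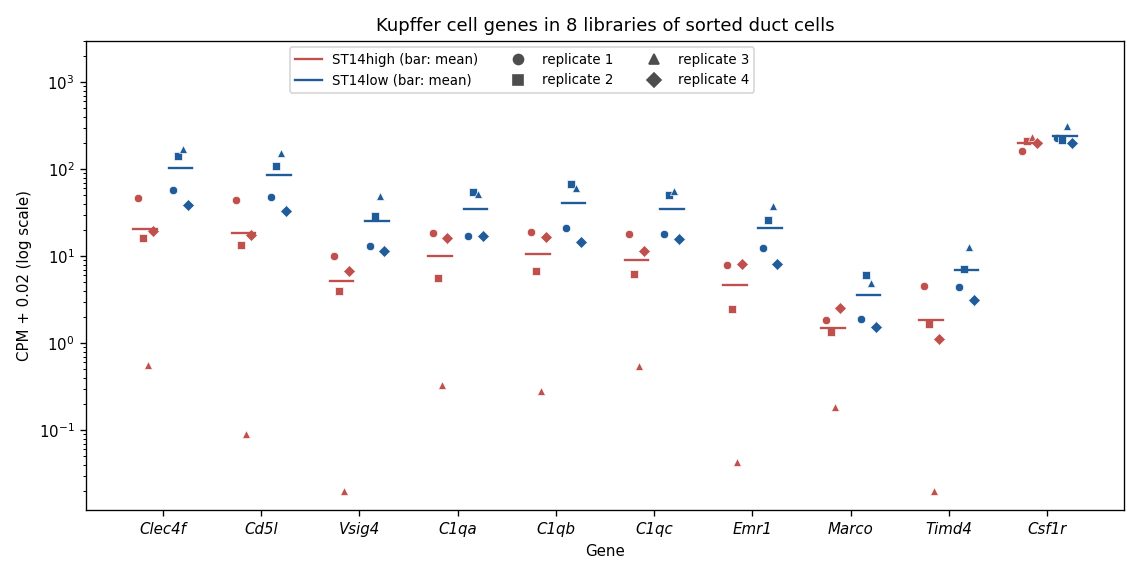
Level of each of the 10 Kupffer cell genes in each library, in CPM with 0.02 added so that zero can be drawn on the log axis; symbols mark the replicate number, colours the population, and bars the population mean (n = 4). The 9 genes other than Csf1r are lowest in ST14high replicate 3 (red triangles), while Csf1r is at 161 to 312 CPM in all 8 libraries.

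Clec4f, a galactose-binding lectin that mouse Kupffer cells carry as a defining marker, was at 46.5, 16.1, 0.543 and 19.2 CPM in ST14high replicates 1 to 4. In ST14low replicates 1 to 4 it was at 57.2, 141, 172 and 38.5 CPM. ST14low replicates 2 and 3 were well above the other libraries, while ST14high replicate 1 lay above ST14low replicate 4, so the populations overlapped. The means were 20.6 ± 19.1 and 102 ± 64.5 CPM (SD, n = 4 each), a log2 fold change of -2.32 (SE 0.93).

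Cd5l, a secreted scavenger-receptor-like protein that macrophages make, followed Clec4f closely. It had 43.6, 13.6, 0.0708 and 17.4 CPM in ST14high replicates 1 to 4 and 47.4, 108, 153 and 32.9 CPM in ST14low replicates 1 to 4. Again ST14high replicate 1 lay above ST14low replicate 4, and again replicate 3 was the lowest in one population and the highest in the other. The log2 fold change was -2.20 (SE 1.06). In ST14high replicate 3 Cd5l rested on 3 reads, 0.0701 CPM without scaling, with an exact Clopper-Pearson 95% interval of 0.0145 to 0.205 CPM that covers counting error only.

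Vsig4, a receptor for complement C3 fragments, was at 10.1, 3.98, 0 and 6.74 CPM in ST14high replicates 1 to 4. Its ST14low levels were 12.96, 29.1, 49.1 and 11.3 CPM. The lowest ST14low library exceeded the highest ST14high library, 11.3 against 10.1 CPM, so the populations did not overlap, by a narrow gap. The log2 fold change was -2.30 (SE 1.05). The 0 reads in ST14high replicate 3 allow up to 0.0701 CPM, taking 3 reads as the limit for a count of 0.

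Timd4, a receptor for phosphatidylserine on dying cells, was a low transcript: 4.48, 1.63, 0 and 1.10 CPM in ST14high replicates 1 to 4 and 4.43, 7.17, 12.7 and 3.13 CPM in ST14low replicates 1 to 4. ST14high replicate 1 was within the ST14low range, and the log2 fold change was -1.94 (SE 1.08). Marco, a class A scavenger receptor, was also a low transcript, at 1.83, 1.31, 0.165 and 2.52 CPM in ST14high replicates 1 to 4. In ST14low replicates 1 to 4 Marco had 1.88, 6.05, 4.94 and 1.50 CPM, so ST14high replicates 1 and 4 lay above ST14low replicate 4. Its log2 fold change of -1.29 (SE 0.78) was the nearest to 0 of the 9 genes.

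Among these surface receptors the proportions were not the same in every library. Marco reads were 2.30 times Timd4 reads in ST14high replicate 4 (exact 95% interval 1.54 to 3.48, 85 and 37 reads). In the 6 other libraries that had reads of Timd4 the ratio was 0.390 to 0.843. ST14high replicate 4 thus held relatively more Marco, and the interval covers counting error only. Cd5l reads were 0.762 to 0.936 of Clec4f reads in 7 libraries and 0.130 in ST14high replicate 3 (exact 95% interval 0.0251 to 0.432), where Clec4f itself had 23 reads.

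C1qa, C1qb and C1qc encode the A, B and C chains of C1q, the recognition protein of the classical complement pathway. They lie next to one another on the minus strand of mouse chromosome 4, in the build mm9 of the deposited tables: C1qb at chr4:136436061-136442092, C1qc at chr4:136445717-136448829 and C1qa at chr4:136451831-136454759. The gaps are 3624 and 3001 bases, and no other listed transcript overlaps them. C1qa had 18.2, 5.61, 0.307 and 16.2 CPM in ST14high replicates 1 to 4 and 17.1, 54.1, 51.2 and 16.9 CPM in ST14low replicates 1 to 4. For C1qb these were 18.8, 6.68, 0.260 and 16.8 CPM, and 20.8, 66.9, 60.0 and 14.6 CPM. ST14low replicates 2 and 3 were the 2 highest libraries for both chains, and ST14high replicates 1 and 4 were at about the level of ST14low replicates 1 and 4. C1qc had 17.9, 6.25, 0.520 and 11.4 CPM in ST14high and 18.1, 51.0, 55.9 and 15.8 CPM in ST14low replicates 1 to 4. The log2 fold changes were -1.79 (SE 0.88) for C1qa, -1.94 (SE 0.92) for C1qb and -1.97 (SE 0.81) for C1qc, with overlapping populations for each.

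**Figure D2:**
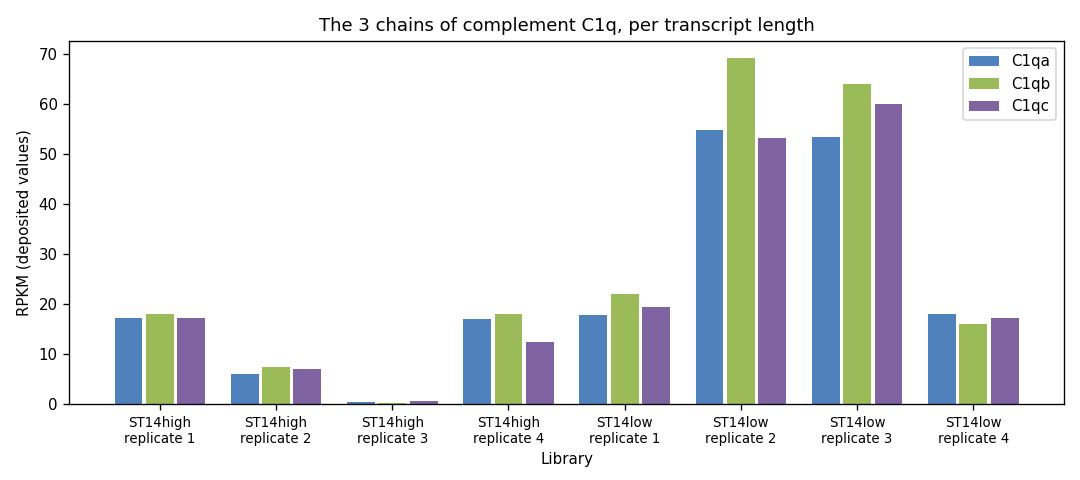
Deposited RPKM of C1qa, C1qb and C1qc in each library (1 bar per library and gene, no error bar since each is a single value). The 3 chains have similar heights within a library, highest in ST14low replicates 2 and 3 at 53.2 to 69.2 RPKM and lowest in ST14high replicate 3.

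Compared per transcript length, in the deposited RPKM, the 3 chains stayed near a common level within each library. The C1qb to C1qa ratio was 0.871 to 1.26 over the 8 libraries. The C1qc to C1qa ratio was 0.963 to 1.15 in 6 libraries, 0.724 in ST14high replicate 4 and 1.77 in ST14high replicate 3, where the 2 genes had 22 and 13 reads. ST14high replicate 4 also had more C1q against the lectin: C1qa reads were 0.844 of Clec4f reads there (exact 95% interval 0.752 to 0.947), against 0.298 to 0.565 in the 7 other libraries. The highest of those, 0.565 in ST14high replicate 3, had an interval of 0.263 to 1.16.

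Emr1, which encodes the macrophage surface protein F4/80, was at 7.89, 2.43, 0.0236 and 8.07 CPM in ST14high replicates 1 to 4. Its ST14low levels were 12.5, 25.8, 37.2 and 8.16 CPM. The populations did not overlap, but only 8.07 and 8.16 CPM separated ST14high replicate 4 from ST14low replicate 4. The log2 fold change was -2.18 (SE 1.01).

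Csf1r, the receptor for CSF1 and IL-34, stayed within a narrow range in all 8 libraries. It had 161, 208, 236 and 201 CPM in ST14high replicates 1 to 4 and 228, 214, 312 and 199 CPM in ST14low replicates 1 to 4. The populations overlapped, with means of 202 ± 30.7 and 238 ± 50.7 CPM (SD, n = 4 each) and a log2 fold change of -0.24 (SE 0.18). In ST14high replicate 3, the library where the other 9 genes were lowest, Csf1r was the highest of its population. There it had 9976 reads, beside 23 of Clec4f, 13 of C1qa and 1 of Emr1. Per length, Csf1r had 75.9 RPKM and Clec4f 0.25 RPKM in that library, while in ST14low replicate 2 the 2 genes had 68.4 and 64.9 RPKM. No listed transcript overlaps Csf1r. The nearest gene is Hmgxb3, 137 bases away on the opposite strand, with 54.6 to 67.8 CPM in ST14high and 69.6 to 87.8 in ST14low libraries. The sources used here do not say whether reads were counted by strand. Which cells the Csf1r reads came from, and whether reads of Hmgxb3 add to them, was not tested, so the Csf1r level cannot be read as a Kupffer cell level.

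Ranked per length over all 8 libraries, Csf1r came first with a mean of 71.8 ± 15.3 RPKM (SD, n = 8, both populations pooled). Clec4f with 28.6 ± 29.0, Cd5l with 28.5 ± 28.9, C1qb with 26.9 ± 25.5, C1qc with 23.4 ± 21.5 and C1qa with 23.1 ± 20.2 RPKM followed. These SDs hold the differences between libraries that the 5 genes share, so they cannot judge differences between the genes. Within a library the RPKM ratio of C1qa to Clec4f was 0.657 to 0.965 in ST14low and 0.768 to 1.86 in ST14high. Vsig4 had 12.95 ± 13.7, Emr1 5.22 ± 5.17, Timd4 2.34 ± 2.21 and Marco 1.84 ± 1.43 RPKM. This order pools populations with different means: in ST14high cells alone the 5 genes after Csf1r were at 9.27 RPKM (Clec4f) to 10.9 RPKM (C1qb), and in ST14low replicate 2 C1qb, at 69.2 RPKM, exceeded Csf1r at 68.4. For Csf1r the SD was a small part of the mean, and for the 9 other genes it was of the order of the mean.

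The sum of the 9 genes other than Csf1r was 169, 57.6, 1.89 and 99.5 CPM in ST14high replicates 1 to 4 and 192, 489, 596 and 143 CPM in ST14low replicates 1 to 4. ST14high replicate 1 exceeded ST14low replicate 4, and 2 of the 4 ST14low libraries held most of the signal. The extreme libraries were also the extremes of depth: ST14high replicate 3 was the deepest and ST14low replicate 3 the shallowest, and the part of depth was not tested. Without ST14high replicate 3 the 9 log2 fold changes were -1.93 to -0.92. Without ST14high replicate 1 they were -3.10 to -1.42, and the populations did not overlap for 7 of the 10 genes, as for 5.02% of all genes tested. Without ST14low replicate 4 they did not overlap for 6 genes, as for 4.04% of all genes tested. With any other single library left out, ST14high replicate 3 included, the number stayed at 2, Vsig4 and Emr1. With neither ST14high replicate 1 nor replicate 3 the 9 log2 fold changes were -2.53 to -0.89.

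Across the 8 libraries the 9 genes varied together. On log2 of CPM plus 0.5, the Pearson correlation with Clec4f was 0.998 for Cd5l, 0.993 for Vsig4 and for C1qc, 0.984 for C1qb and 0.980 for C1qa. It was 0.978 for Emr1, 0.973 for Timd4, 0.922 for Marco and 0.13 for Csf1r. The 36 pairs among the 9 genes had correlations of 0.860 to 0.998. These points share their library, its depth and its mixture of cells, and they are given with no p. Without the 2 libraries farthest from the median of Clec4f, ST14high replicate 3 and ST14low replicate 3, the correlation with Clec4f over 6 libraries was 0.997 for Cd5l, 0.732 for Marco and 0.125 for Csf1r. Without ST14high replicate 3 alone it was 0.563 for Csf1r.

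**Figure D3:**
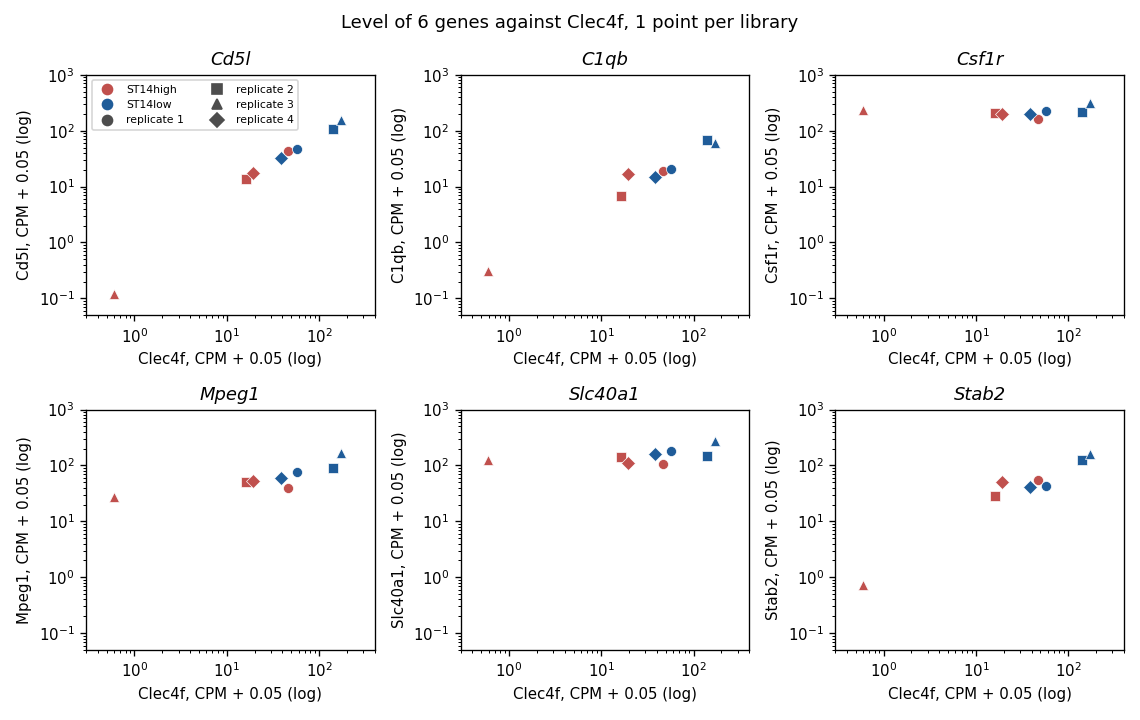
Level of 6 genes (vertical axes, CPM plus 0.05, log scale) against Clec4f (horizontal axes, same scale), 1 point per library, with colours for the population and symbols for the replicate number. Cd5l, C1qb and Stab2 follow Clec4f down to ST14high replicate 3, while Csf1r and Slc40a1 are at 236 and 123 CPM there, and Mpeg1 is at 27.0 CPM, its lowest value.

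Of the 11374 genes with at least 5 CPM on average, 6 of the 10 most like Clec4f were among the genes described here. The 10 others most like it began with Ctss, the lysosomal protease cathepsin S, at a correlation of 0.987, and Fcna, the plasma lectin ficolin A, at 0.978. Cd300lg, a surface protein of endothelium, had 0.977, Lcp1, an actin-bundling protein of blood cells, 0.975, and Siglec1, a sialic acid lectin of macrophages, 0.973. Arntl, a transcription factor of the circadian clock, also had 0.973 and Tmem170 0.972, the latter within only 13.6 to 19.9 CPM. The last were Stab2 with 0.969, Folr2, a folate receptor, with 0.969, and Mrc1, the mannose receptor, with 0.966. Without ST14high replicate 3 and ST14low replicate 3 these 10 correlations ran from 0.797 for Mrc1 to 0.995 for Folr2. Stab2, a hyaluronan and scavenger receptor of liver sinusoidal endothelium, stood at 54.4, 28.0, 0.685 and 50.9 CPM in ST14high and 43.3, 124, 160 and 41.9 CPM in ST14low replicates 1 to 4. Csf1r ranked 4128 of the 11374.

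Sequence upstream of the start site was available from RefSeq (build GRCm38.p6) for 7 of the 10 genes, all except C1qa, Emr1 and Csf1r. The 250 bases before the start are shown for the 5 of these 7 genes with the most reads, because these genes varied together across the libraries. Each runs 5′ to 3′ along its own gene, ending next to the start site, with GAGGAA, the core that PU.1 binds, or its reverse complement TTCCTC in capitals.
Clec4f, chr6:83656117-83656366, minus strand: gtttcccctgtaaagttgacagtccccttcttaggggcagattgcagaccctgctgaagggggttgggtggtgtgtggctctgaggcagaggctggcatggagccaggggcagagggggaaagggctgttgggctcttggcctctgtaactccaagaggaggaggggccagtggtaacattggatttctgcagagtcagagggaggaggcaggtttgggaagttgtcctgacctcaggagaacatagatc
Cd5l, chr3:87357631-87357880, plus strand: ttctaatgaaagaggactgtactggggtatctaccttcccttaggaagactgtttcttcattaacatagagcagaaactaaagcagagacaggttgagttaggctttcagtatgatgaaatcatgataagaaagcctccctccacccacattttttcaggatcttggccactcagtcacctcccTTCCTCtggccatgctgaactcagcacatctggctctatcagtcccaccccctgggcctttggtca
Vsig4, chrX:96293439-96293688, minus strand: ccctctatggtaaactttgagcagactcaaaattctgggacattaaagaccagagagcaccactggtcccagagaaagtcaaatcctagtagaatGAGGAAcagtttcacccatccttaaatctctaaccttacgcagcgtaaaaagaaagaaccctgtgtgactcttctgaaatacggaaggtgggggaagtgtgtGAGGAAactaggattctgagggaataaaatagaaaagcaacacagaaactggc
C1qb, chr4:136886201-136886450, minus strand: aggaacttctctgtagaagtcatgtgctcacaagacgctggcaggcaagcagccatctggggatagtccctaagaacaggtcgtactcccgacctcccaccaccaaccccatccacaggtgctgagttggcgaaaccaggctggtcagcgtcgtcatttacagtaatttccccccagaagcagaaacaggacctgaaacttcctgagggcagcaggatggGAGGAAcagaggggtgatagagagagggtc
C1qc, chr4:136892915-136893164, minus strand: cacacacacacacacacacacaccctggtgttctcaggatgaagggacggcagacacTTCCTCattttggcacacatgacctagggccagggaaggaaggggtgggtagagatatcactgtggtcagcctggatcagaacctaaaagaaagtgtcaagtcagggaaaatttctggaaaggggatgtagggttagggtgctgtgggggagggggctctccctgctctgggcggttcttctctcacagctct
The GAGGAA core, on either strand, was present upstream of 5 of the 7 genes: Cd5l, Vsig4, with 2 matches, C1qb, C1qc and Marco. It was present in 23.3% of all 32851 promoters of the same length. TGCTGA, a half-site bound by MAF factors, on either strand, was found upstream of 4 of the 7 genes, Clec4f, Cd5l, C1qb and Timd4, and in 16.1% of all promoters. These matches describe the letters in this window and were not linked to any binding data.

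Other genes known from Kupffer cells were mostly lower in ST14high cells, but none passed the test. Of 19 listed genes 0 were called by edgeR at an adjusted p of 0.05 (background 0%), 5 were lower in ST14high at an unadjusted p under 0.05 (2.68% of all genes tested), none were higher, and DESeq2 called 1, Id3 (1.70% of all genes). The median log2 fold change was -0.96, with 16 of 19 below 0 (49.7% of all genes tested). Id3, a transcriptional regulator that Kupffer cells need, had 148, 162, 137 and 178 CPM in ST14high and 245, 215, 238 and 204 CPM in ST14low replicates 1 to 4. Its populations did not overlap, at a log2 fold change of -0.53 (SE 0.13, edgeR adjusted p = 0.246). Slc40a1, the iron exporter ferroportin, had 107, 141, 123 and 109 CPM and then 184, 150, 275 and 161 CPM, also without overlap (log2 fold change -0.68, SE 0.20, edgeR adjusted p = 0.320). Vcam1, an adhesion protein (0.14, SE 0.28), and Hpgd, which degrades prostaglandins (0.08, SE 0.17), overlapped between populations, and the sign of both turned when single libraries were left out.

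In ST14high replicate 3 the Kupffer cell genes divided. All but Csf1r of the 10 genes were at 0% to 8.82% of their median in the other 7 libraries, and Csf1r was at 113%. Of the 19 further genes 7 were under 10% of that median, as were 3.64% of all genes tested. Siglec1 and Cd163, the haemoglobin scavenger receptor, named after its values were seen, had 0 reads there, while Slc40a1 was at 81.9%, Vcam1 at 87.8% and Hpgd at 86.4%. Among general myeloid genes 17 of 22 tested were under 10%, with Mpeg1 at 45.6% and Cybb at 28.1%.

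General myeloid genes, which many blood phagocytes express, numbered 24, of which 22 were tested. edgeR called 0 of them, 5 were lower in ST14high at an unadjusted p under 0.05 (2.68% of all genes tested), none were higher, and DESeq2 called 1, Mpeg1 (1.70% of all genes). Their median log2 fold change was -1.35 (-1.93 to -0.94 with each library left out in turn), with 20 of 22 below 0 (49.7% of all genes tested). Their summed levels were 39.4 to 170 CPM in ST14high against 183 to 496 CPM in ST14low libraries, which did not overlap. Mpeg1, the pore-forming protein perforin-2, had 39.2, 50.1, 27.0 and 53.5 CPM and then 76.6, 91.2, 169 and 59.3 CPM (log2 fold change -1.22, SE 0.33, edgeR adjusted p = 0.284). Cybb, a subunit of the phagocyte oxidase, was at -1.34 (SE 0.41) and Ctss at -2.07 (SE 0.87), both without overlap, and Lyz2, lysozyme, at -1.75 (SE 0.87) with overlap. Ptprc was at -1.37 (SE 1.09), and Itgam, an integrin of monocytes and neutrophils, at 0.11 (SE 1.38) on 0 to 3.60 CPM in any library.

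The ligands of Csf1r and the macrophage transcription factors showed no common direction. The median log2 fold change of the 14 genes was -0.05, and edgeR and DESeq2 each called 0 of them (0% and 1.70% of all genes). Only 1 had an unadjusted edgeR p under 0.05, higher in ST14high, a share near the 6.89% of all genes tested. That 1 gene was Csf1, the ligand, with 69.1 ± 18.6 CPM in ST14high and 42.7 ± 8.77 in ST14low cells (log2 fold change 0.70, SE 0.23, edgeR adjusted p = 0.396), and the populations overlapped. Sfpi1, the PU.1 gene, which is named here after its values were seen, had 2.34, 0.676, 0 and 0.386 CPM in ST14high and 2.26, 5.69, 6.33 and 3.03 CPM in ST14low replicates 1 to 4. The most abundant factors, Ets2 (-0.06, SE 0.20), Cebpa (-0.31, SE 0.16) and Nr1h2 (0.19, SE 0.12), overlapped between the populations.

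Other genes of the classical complement pathway, with inhibitors and proteins that bind C1q, were mostly above 0. Of 13 listed genes 11 were tested, edgeR called 0, 4 were higher in ST14high at an unadjusted p under 0.05 (6.89% of all genes tested), and DESeq2 called 1, C1s (1.70% of all genes). The median log2 fold change was 0.20, with 9 of 11 above 0. C1s, a protease that works with C1q, named after its values were seen, had 151, 52.4, 45.1 and 57.6 CPM in ST14high and 23.4, 14.8, 39.2 and 12.2 CPM in ST14low replicates 1 to 4. Every ST14high library lay above every ST14low library, at a log2 fold change of 1.79 (SE 0.47, edgeR adjusted p = 0.274). With each library left out in turn that fold change was 1.23 to 2.19. Serping1, which inhibits the C1 proteases, was at 0.60 (SE 0.21), C3 at 0.20 (SE 0.20), C2 at 0.18 (SE 0.19) and Calr, a chaperone that can bind C1q, at 0.05 (SE 0.21), all with overlap. The mesothelial and fibroblast sum was also higher in every ST14high library, 552 to 2493 CPM against 214 to 365, and its part in the complement values was not tested.

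Scavenger receptors and bridging proteins for dying cells lay on both sides of 0. Of 18 listed genes 15 were tested, and edgeR and DESeq2 called 0 (0% and 1.70% of all genes). At an unadjusted p under 0.05, 2 were higher in ST14high (6.89% of all genes tested), and the median log2 fold change was -0.20. The values, of genes named after they were seen, ran from Msr1, a class A scavenger receptor like Marco, at -1.58 (SE 0.96) to Colec12, a scavenger receptor with a lectin domain, at 2.06 (SE 0.70). With each library left out in turn Msr1 was at -1.94 to -0.95 and Colec12 at 0.81 to 2.34. The most abundant, Gas6, a bridging ligand of TAM receptors (0.23, SE 0.18), Scara3 (-0.39, SE 0.24), Mfge8, which bridges phosphatidylserine and integrins (-0.28, SE 0.18), and Scarb2 of the lysosome membrane (0.12, SE 0.22), overlapped between the populations.

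**Figure D4:**
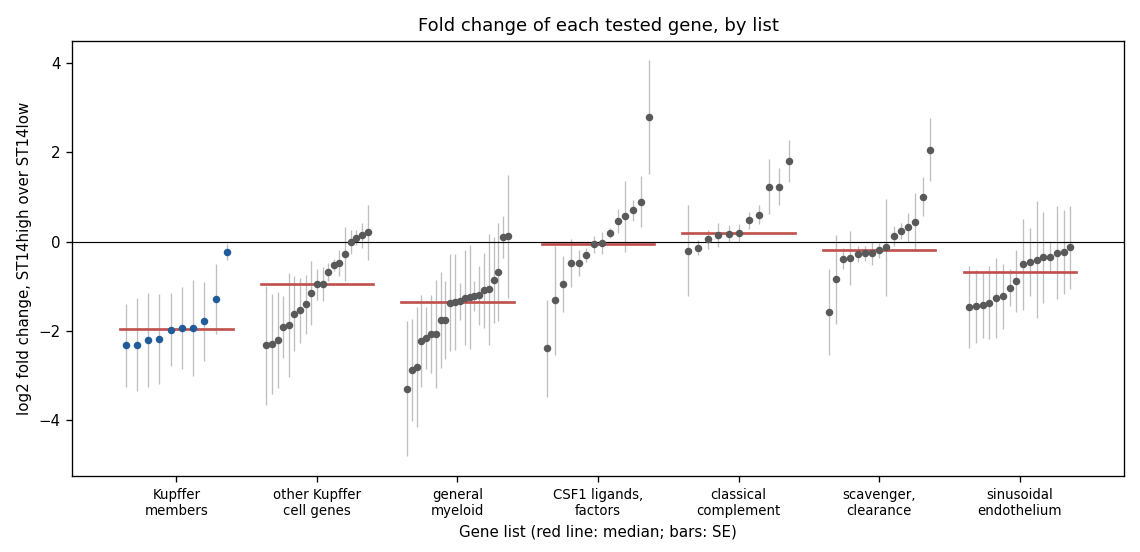
Log2 fold change (ST14high over ST14low) of every tested gene in 7 lists, with SE bars from edgeR and a red line at each list's median. The 9 Kupffer cell genes other than Csf1r lie between -2.32 and -1.29, and the medians of the general myeloid and sinusoidal endothelial lists are -1.35 and -0.69.

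Markers of another cell type of the sinusoids moved in part with the Kupffer cell genes between libraries. The 16 sinusoidal endothelial markers summed to 1280, 353, 69.7 and 595 CPM in ST14high and 434, 1319, 1688 and 425 CPM in ST14low replicates 1 to 4, lowest and highest in the same libraries as the sum of the 9 genes. In between the order differed: ST14high replicate 4 exceeded ST14low replicates 1 and 4 for the endothelial sum and lay below both for the 9 genes. Pecam1, Cdh5, Tek, Eng, Ptprb and Emcn, named after their values were seen, were highest in ST14high replicate 1, and the other markers were not. All 16 markers had a log2 fold change below 0 (49.7% of all genes tested), with a median of -0.69, and the populations overlapped for each of them. edgeR and DESeq2 called 0 of the 16 (0% and 1.70% of all genes), and 1 had an unadjusted p under 0.05, lower in ST14high (2.68% of all genes tested). Stab2 was itself among the genes most like Clec4f. Taken as reads over Stab2 reads, 6 of the 9 genes overlapped between the populations and 3, Clec4f, Vsig4 and Emr1, were lower in every ST14high library. The share of all genes separated on this ratio was not computed, so these counts only describe the 9 genes. Clec4f was 0.378 to 0.856 of Stab2 in ST14high and 0.919 to 1.32 of it in ST14low libraries, and in ST14high replicate 3 its 0.793 had an exact 95% interval of 0.438 to 1.42 on 23 and 29 reads. C1qa was 0.201 to 0.448 and 0.319 to 0.437 of Stab2, with overlap. That median was -1.62 without ST14high replicate 1 and -0.39 and -0.35 without ST14high replicate 3 and ST14low replicate 3. The part of endothelial RNA in the Kupffer cell values was not tested.

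Other blood cells left few transcripts. The 13 matched lymphocyte markers summed to 0.0708 to 10.1 CPM in ST14high and 6.18 to 30.8 in ST14low libraries, with 12 of the 13 at 0 in ST14high replicate 3. The 10 dendritic cell markers summed to 10.1 to 16.7 and 12.9 to 27.6 CPM, with 9 of them at 0 in ST14high replicate 3. Zbtb46, a transcription factor, carried most of the sum in every ST14high library, and the 9 other dendritic markers summed to 0 to 4.75 CPM in ST14high and 3.79 to 10.8 in ST14low libraries. The 15 matched monocyte and neutrophil markers summed to 5.81 to 144 CPM in ST14high, highest in replicate 1, and 14.9 to 21.0 in ST14low libraries, and 3 of them were at 0 in all ST14high libraries. Plac8 at 79.1 CPM and Ltf at 58.5 CPM carried most of the sum in ST14high replicate 1. Hepatocyte transcripts, 12 markers, were abundant in both populations as a sum, at 4946 to 12547 and 7853 to 14610 CPM. Alb, the albumin gene, carried most of the sum in every library. Among the others, levels ran down to 1.68 CPM, for Cyp2e1 in ST14high replicate 3. edgeR called 0 genes of each of these 4 lists (background 0%), with 1 lymphocyte and 1 hepatocyte gene lower in ST14high at an unadjusted p under 0.05 (2.68% of all genes tested). DESeq2 called 1 lymphocyte gene, Gzma (1.70% of all genes).

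**Figure D5:**
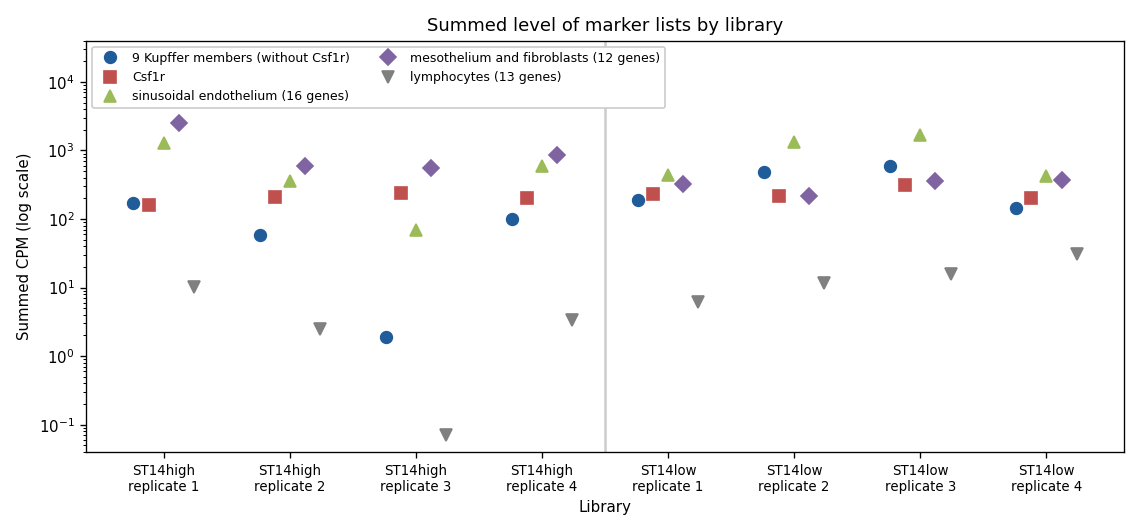
Summed CPM (log scale) of the 9 Kupffer cell genes, of Csf1r, and of the marker lists of sinusoidal endothelium, mesothelium and fibroblasts, and lymphocytes in each library, ST14high on the left and ST14low on the right. The Kupffer cell sum runs from 1.89 CPM in ST14high replicate 3 to 596 CPM in ST14low replicate 3, while Csf1r stays between 161 and 312 CPM.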

How the data were processed

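RNA was sequenced from 4 ST14high and 4 ST14low libraries; groups and replicate numbers came from the labels. The submitters' processing notes name Bowtie 1.0.0, CASAVA 1.8.2 and mm9. The sources used here do not give the counting program or its strand setting. The deposited tables, per the file headers, list 26005 transcripts with a raw count and an RPKM that the authors scaled by length and depth. For symbols with several transcripts the row with the most counts was kept; each of the 10 genes had 1 row.

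Counts were fitted with edgeR 4.0.16 (R 4.3.3; TMM, filterByExpr, quasi-likelihood test, two-sided, Benjamini-Hochberg, threshold 0.05), checked on simulated data. CPM are TMM-scaled, and RPKM served to compare genes. Alternatives were DESeq2 1.42.0, limma 3.58.1 (voom), other factors, filters, transcripts, RPKM with 0.1 added, a replicate block and each library left out. Plain library sizes and leaving out ST14high replicates 1 and 3 were added after seeing the data.

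The 10 genes and the gene lists were chosen with earlier results of these data known. The text names the 10 genes, the 4 most abundant of 5 lists, 6 sort and blood markers and the 10 genes most like Clec4f. Sfpi1, C1s, Cd163, Gzma, Msr1, Colec12, Zbtb46 and Hmgxb3 were added after their values were seen. So were Pecam1, Cdh5, Tek, Eng, Ptprb, Emcn, Alb, Cyp2e1, Plac8 and Ltf.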

Additional observations from a re-analysis of the deposited data

Results flagged for a closer look

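Among 48 values tested for a library far from the 3 others of its population, 4 stood out; chance alone gives about 1 in 20. In ST14high replicate 1 the 14 genes for CSF1 ligands and macrophage transcription factors summed to 1157 CPM, against 697 to 754 in the 3 other ST14high libraries. Ets2 was the largest part of that sum, at 590 CPM against 314 to 365 in the other ST14high libraries. Sfpi1 had 2.34 CPM in ST14high replicate 1. The mesothelial and fibroblast sum of 2493 CPM and the pancreatic acinar sum of 9261 CPM were also highest in that library, far from their population. In ST14low replicate 1 the acinar sum was 98.8 CPM, against 1.64 to 4.25 CPM in the other ST14low libraries. The levels of the 10 Kupffer cell genes gave no such library. ST14high replicate 3 lay lowest for 9 of them, but the criterion could not have marked it. CPM cannot be negative, and the 3 other ST14high libraries differed widely for these genes.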

How the results depend on the processing

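The median log2 fold change of the 10 genes was -2.55 to -1.56 with each library left out in turn and -2.89 to -1.95 under the other alternatives, the lowest with limma voom, where Vsig4 was at -4.02 and Timd4 at -3.16 and the general myeloid median at -2.39; 8 or 9 of the 10 were at -1 or less, or 7 of the 8 left with at least 5 CPM in 4 libraries, and Csf1r was at -0.34 to -0.09. Of all genes 306 were at -1 or less, 1052 without a filter, 48 with at least 5 CPM in 4 libraries, and 499 to 553 with voom, the block or without ST14high replicate 1, and 603 without ST14high replicates 1 and 3. Over all genes edgeR called 0, DESeq2 234, the fit with a replicate block 2 and the fit without ST14high replicates 1 and 3 called 12. DESeq2 called 1 further Kupffer cell gene, 1 general myeloid and 1 complement gene; the cause was not tested. The labels do not say whether same-numbered libraries were prepared together. Their deviations from the population means correlated at -0.126 to 0.0654, and none correlated best with its own number. Such values over few libraries do not settle pairing, and the acinar sum was highest in replicate 1 of both populations. Leaving out single libraries turned the sign of small values: Vcam1 -0.27 to 0.28, Hpgd -0.00897 to 0.18, Ets2 -0.30 to 0.0375, Calr -0.0908 to 0.18, C2 -0.0258 to 0.25, Scarb2 -0.0040 to 0.32, Epcam -0.0894 to 0.0112, Sox9 -0.13 to 0.00681, Krt19 -0.0421 to 1.03 and Itgam -2.40 to 0.53. Without both ST14high replicates 1 and 3, Vcam1 was at -0.30, C3 at -0.0306, Calr at -0.16, C2 at -0.00694, Krt19 at -0.14 and Itgam at -1.77. With voom Vcam1 was at -0.0919, Zbtb46 at 0.0552 and Itgam at -2.10, and with the block Itgam was at -1.88; the cause was not tested. Depth limited ST14high replicate 3 least: a count of 0 allows 0.0701 CPM there and 0.469 CPM in ST14low replicate 3.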
